A study of Mus musculus with 18 samples.

Results

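The 34 genes followed here are transcripts known mainly from neurons, read in RNA from mouse astrocytes that had been sorted by fluorescence. They were taken by symbol from a list, and all 34 were found among the 26301 genes of the deposited count table. They comprise 12 cytoskeletal genes, 3 genes of growth and adhesion, 5 of RNA binding proteins, 7 of the synaptic vesicle and its fusion machinery, 5 of transmitter synthesis and loading, and 2 transcription factors. The study asked which astrocyte transcripts respond to contact with neurons. The astrocytes came from the cortex of newborn (P0) mice, were expanded in serum for about 2 weeks, and were moved to N2 medium when confluent. Control plates were left alone, and the experimental plates received hippocampal neurons of TdTomato+ P0 mice, so that the neurons, and not the astrocytes, carried the red fluorescent protein. After 2, 4 or 7 days cells of both arms were detached and sorted, with the gate for cells without TdTomato set on astrocytes kept alone. Each of the 6 groups had 3 libraries, 9 alone and 9 from co-culture. The promoter that drives TdTomato, the share of neurons that carry it, the strain and the number of animals are not given in the labels, and every library is labelled as astrocyte, so the sort itself is the only stated separation from the added neurons.

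Neurons extend and hold their axons and dendrites with a set of dedicated microtubule proteins and neurofilaments, release transmitter through a vesicle fusion machine, and load the vesicles with glutamate or GABA through enzymes and transporters that mark the excitatory and inhibitory kinds. Doublecortin (Dcx) and several stathmins and collapsin response mediators belong to young, growing neurons, whereas neurofilaments and most vesicle proteins accumulate as neurons mature. Astrocytes cultured from newborn cortex are immature glia, close to the progenitors that make both cell types, and some genes used as neuronal markers are also transcribed in progenitors and glia.

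The libraries held 3242459 to 32623556 reads. A pair of libraries stood apart. Replicate 1 of astrocytes alone at day 2 was the smallest and had 92.5% of its reads on a single gene, and the day 7 co-culture library of replicate 1 had 8966485 reads, 40.5% of them from mt-Rnr2, a mitochondrial ribosomal RNA. Where stated, results are given also over the 16 other libraries. Of 12 astrocyte markers looked at for the labelled cell type, all 12, with Gfap, Aqp4 and Slc1a3 at the top, were read in at least 7 of the 9 libraries alone. So were 83.8% of all genes with at least 10 reads, and this criterion does little to tell cell types apart. The summed level of the astrocyte markers was 40.1 to 6759 CPM (reads divided by the total reads of the library and multiplied by 1000000, with no other scaling) alone and 1486 to 7461 in co-culture. Markers of other cells were present in both arms, with summed levels of 16.3 to 589 CPM alone and 114 to 544 in co-culture for oligodendrocyte lineage genes, 1.85 to 240 and 7.07 to 504 for microglia, 22.5 to 1040 and 27.9 to 1511 for endothelial and mural cells, 7.71 to 364 and 41.4 to 422 for meningeal fibroblasts, and 7.40 to 429 and 196 to 570 for ependymal cells. Every low end alone, and each in co-culture except that of microglia, lay in the pair of libraries that stood apart. Over the 16 other libraries the low ends alone and in co-culture were 1669 and 1956 CPM for astrocyte markers. They were 161 and 119 for oligodendrocyte lineage genes, 3.66 and 7.07 for microglia, and 161 and 180 for endothelial and mural cells. For meningeal fibroblasts they were 164 and 190, and for ependymal cells 167 and 230. In bulk RNA, fewer cells of a type and less RNA per cell cannot be told apart.

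The genes were sorted by where their reads fell. A gene was counted as read in astrocytes alone when it had a read in at least 7 of the 9 libraries alone, and as read almost only in co-culture when at most 10% of its summed CPM came from those 9 libraries. Of 33 members with at least 10 reads, 23 were read in astrocytes cultured without added neurons. They were Nefh, Tubb3, Map2, Mapt, Stmn2, Stmn3, Crmp1 and Dpysl3 of the cytoskeleton, Gap43 and Reln, the RNA binding genes Elavl2, Elavl3 and Celf4, the synaptic genes Syt1, Syn1, Syn2, Syp, Stx1a and Vamp2, the transmitter genes Slc17a7 and Gad1, and the transcription factors Dlx1 and Dlx2. That is 69.7% of the members, against 83.8% of the 19479 genes of the table with at least 10 reads. Only 3 members, Dcx, Nefl and Slc32a1, were read almost only in co-culture, which is 9.09% of the members beside 2.2% of all genes (428 of 19479). The other 7, Nefm, Ina, L1cam, Rbfox3, Elavl4, Snap25 and Gad2, had reads in too few libraries alone for the former group and too large a share there for the latter. Slc17a6, the vesicular glutamate transporter of subcortical and some young cortical neurons, had 0 reads in all 18 libraries, a count that allows up to 3 reads in either arm. Over 16 libraries Snap25 and Gad2 joined the genes read almost only in co-culture, making 5, and 23 were again read in astrocytes alone, while the share over all genes was 1.37% (264 of 19311). The classes were formed from the values, so they carry no test.

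**Figure D1:**
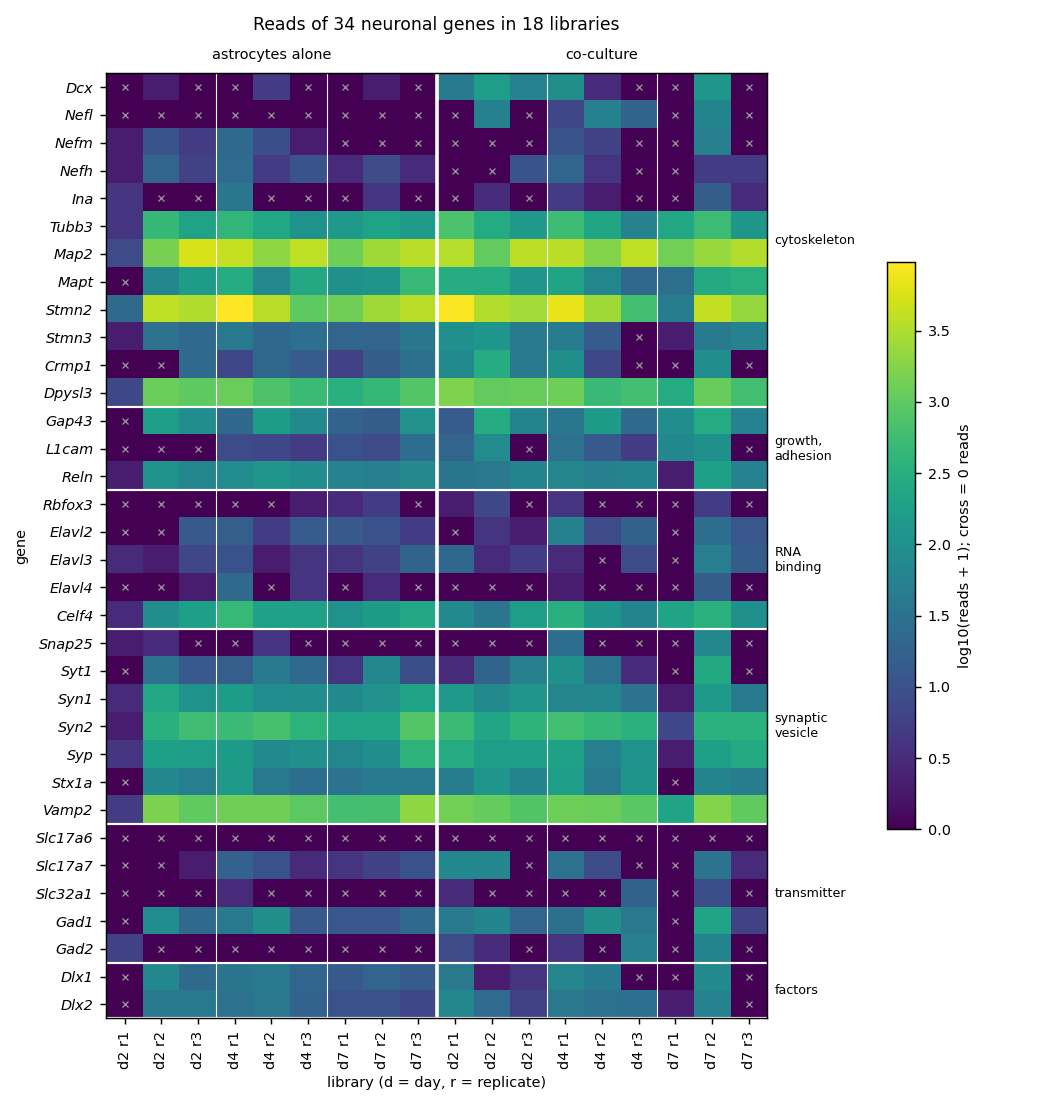
Reads of the 34 genes (rows, by role) in each of 18 libraries (columns, astrocytes alone on the left, co-culture on the right, by day and replicate), coloured by log10(reads + 1), with a cross at 0 reads. Dcx and Nefl are dark on the left and partly lit on the right, whereas Stmn2, Map2, Vamp2 and Dpysl3 are bright in both arms, and the columns of the pair of libraries that stand apart, each a replicate 1, are darker than the rest.

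Promoter sequence is shown for 4 members that stand for these patterns, Dcx and Gad2 with few or no reads alone, and Tubb3 and Syn1 with reads in all 9 libraries alone. Each line is the 250 bases before the annotated start, 5′ to 3′ on the gene's strand, from RefSeq, build GRCm38.p6. Many neuronal genes carry an RE1 element, to which the repressor REST binds in cells that are not neurons. Its left arm was searched as TTCAGCACC and its right arm as GGACAGCGC, on both strands and with at most 1 mismatch. Capitals mark a match.
Dcx, chrX:143933220-143933469, minus strand: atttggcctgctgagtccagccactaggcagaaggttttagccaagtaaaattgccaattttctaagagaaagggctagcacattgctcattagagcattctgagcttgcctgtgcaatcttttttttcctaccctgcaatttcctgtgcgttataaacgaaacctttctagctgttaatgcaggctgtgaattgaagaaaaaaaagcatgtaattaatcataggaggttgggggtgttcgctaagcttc
Gad2, chr2:22622077-22622326, plus strand: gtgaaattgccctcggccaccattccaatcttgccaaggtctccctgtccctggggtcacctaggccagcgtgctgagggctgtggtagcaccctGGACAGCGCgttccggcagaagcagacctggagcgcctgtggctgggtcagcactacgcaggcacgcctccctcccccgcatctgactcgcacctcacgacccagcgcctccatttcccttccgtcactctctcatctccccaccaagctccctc
Tubb3, chr8:123411303-123411552, plus strand: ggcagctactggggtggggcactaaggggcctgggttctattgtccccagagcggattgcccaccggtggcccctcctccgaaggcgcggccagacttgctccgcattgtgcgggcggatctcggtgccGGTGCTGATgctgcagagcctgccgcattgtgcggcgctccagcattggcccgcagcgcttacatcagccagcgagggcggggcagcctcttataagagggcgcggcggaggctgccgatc
Syn1, chrX:20920919-20921168, minus strand: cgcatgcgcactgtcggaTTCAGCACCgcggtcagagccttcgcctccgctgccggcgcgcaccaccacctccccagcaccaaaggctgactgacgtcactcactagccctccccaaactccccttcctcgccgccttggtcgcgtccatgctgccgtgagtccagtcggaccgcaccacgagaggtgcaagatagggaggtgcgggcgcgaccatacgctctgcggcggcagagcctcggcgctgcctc
Gad2 held an exact right arm that began 155 bases before its start, and Syn1 an exact left arm that began 232 bases before its start. Tubb3 held a left arm with 1 mismatch on the opposite strand, 121 bases before its start, and the Dcx window shown held neither. RefSeq promoters were at hand for 24 of the 34 members (38 windows), and 5 of the 38 (13.2%) held an arm with at most 1 mismatch, beside 13.6% of 32851 windows of all genes. An exact arm stood in 2 of the 38 (5.26%) and in 0.603% of all windows, and no member window held both arms. A match is a description of letters, and both exact matches lie in genes of different read patterns.

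Dcx codes for a protein that binds and bundles microtubules in migrating neurons. In astrocytes alone it had 0, 1 and 0 reads at day 2 in replicates 1, 2 and 3, then 0, 4 and 0 at day 4 and 0, 1 and 0 at day 7. In co-culture it had 45, 172 and 58 reads at day 2, 93, 2 and 0 at day 4, and 0, 126 and 0 at day 7. At day 2 every co-culture library was above every library alone, and at days 4 and 7 the groups overlapped, since replicate 3 at day 4 and replicates 1 and 3 at day 7 had none. In CPM the co-culture mean was 4.98 ± 4.96 (SD, n = 3) at day 2, 1.29 ± 2.14 at day 4 and 1.29 ± 2.23 at day 7. Reads pooled per arm and scaled by total reads gave 79.6 times more in co-culture over all days (95% interval 36.3 to 218, exact binomial and covering counting error only, as all ratios and limits of reads here). By day the ratio was 219 (38.9 to 8669) at day 2, 27.1 (10.2 to 101) at day 4 and 123 (21.7 to 4904) at day 7.

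Nefl, the light chain on which neurofilaments assemble, had 0 reads in all 9 libraries alone. In co-culture it had 0, 55 and 0 reads at day 2, 6, 56 and 18 at day 4, and 0, 62 and 0 at day 7. The groups did not overlap at day 4, and at days 2 and 7 replicate 2 was the one library with any. Against a floor of 3 reads over the libraries alone, Nefl was at least 63.2-fold higher in co-culture over all days, and at least 14.6-fold, 30.4-fold and 20.2-fold higher at days 2, 4 and 7. Slc32a1, the transporter that loads GABA and glycine into vesicles, was far rarer, with 2 reads alone, both in replicate 1 at day 4. It had 26 in co-culture, of which 2 were in replicate 1 at day 2, 16 in replicate 3 at day 4 and 8 in replicate 2 at day 7. Its ratio was 12.5 (3.13 to 109) over all days, and the arms overlapped at 0 at every day. Of the exonic bases of Slc32a1, 24.9% are shared with an antisense gene in the annotation used, and Nefl shares 32.8% of its bases with Nefm on the opposite strand. Whether counting used the strand is not given, so reads in these stretches cannot be assigned to either gene.

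Gad2 makes one of the enzymes that turn glutamate into GABA. Its reads alone were 5, all in replicate 1 at day 2, the library with few other reads, and the remaining 8 libraries alone had 0. In co-culture it had 7, 2 and 0 reads at day 2, 3, 0 and 53 at day 4, and 0, 61 and 0 at day 7, so that replicate 3 at day 4 and replicate 2 at day 7 held most of them. Over all days and 18 libraries the ratio of Gad2 was 24.3 (10.1 to 76.0). By day it was 1.43 (0.431 to 5.44) at day 2, and at least 21.3 and 19.9 at days 4 and 7. Over 16 libraries, without the library that held every read alone, Gad2 was at least 41.7-fold higher in co-culture. Snap25, a membrane protein of the vesicle fusion complex, had 6 reads alone (1, 2 and 0 at day 2, 0, 3 and 0 at day 4, and none at day 7). Its 97 co-culture reads fell in a pair of libraries only, 26 in replicate 1 at day 4 and 71 in replicate 2 at day 7, and the other 7 had 0. The pooled ratio of Snap25 was 15.6 (6.90 to 43.4), with 7 of 9 co-culture libraries at 0.

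L1cam, an adhesion molecule of growing axons, had 0, 0 and 0 reads alone at day 2, 7, 6 and 4 at day 4, and 9, 7 and 26 at day 7. In co-culture its reads were 19, 83 and 0 at day 2, 30, 12 and 4 at day 4, and 72, 99 and 0 at day 7. The arms overlapped at each day, through replicate 3, while 7 of 9 same-day, same-number pairs had the higher CPM in co-culture. The 7 include replicate 1 at days 2 and 7, where 1 library of each pair stood apart. L1cam was at least 27.0-fold higher in co-culture at day 2, and its ratio was 3.08 (1.73 to 5.74) at day 4 and 3.98 (2.83 to 5.72) at day 7. Crmp1, a collapsin response mediator that relays guidance signals to the growth cone, was read alone at 0, 0 and 23 reads at day 2, 6, 20 and 13 at day 4, and 5, 14 and 28 at day 7. In co-culture it had 78, 293 and 44 reads at day 2, when no library overlapped those alone, and then 96, 6 and 0 at day 4 and 0, 88 and 0 at day 7. The ratio of Crmp1 accordingly went from 14.3 (9.43 to 22.9) at day 2 to 2.98 (2.04 to 4.43) at day 4 and 1.83 (1.27 to 2.67) at day 7, the last from replicate 2 alone.

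Slc17a7, the main vesicular glutamate transporter of hippocampal and cortical excitatory neurons, showed the same unevenness. Alone it had 0, 0 and 1 reads at day 2, 17, 9 and 2 at day 4, and 3, 5 and 9 at day 7. In co-culture it had 71, 69 and 0 at day 2, 29, 7 and 0 at day 4, and 0, 32 and 2 at day 7. The arms overlapped at every day, with the low values in replicate 3 at days 2 and 4 and in replicates 1 and 3 at day 7. Its ratio was 111 (19.7 to 4429) at day 2, 1.47 (0.869 to 2.49) at day 4, 1.96 (1.06 to 3.73) at day 7 and 4.39 (3.18 to 6.19) over all days. Gad1, the other GABA-making enzyme, was read in 8 of 9 libraries of each arm, with 11 to 91 reads alone outside the library at 0 and up to 209 in co-culture.

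**Figure D2:**
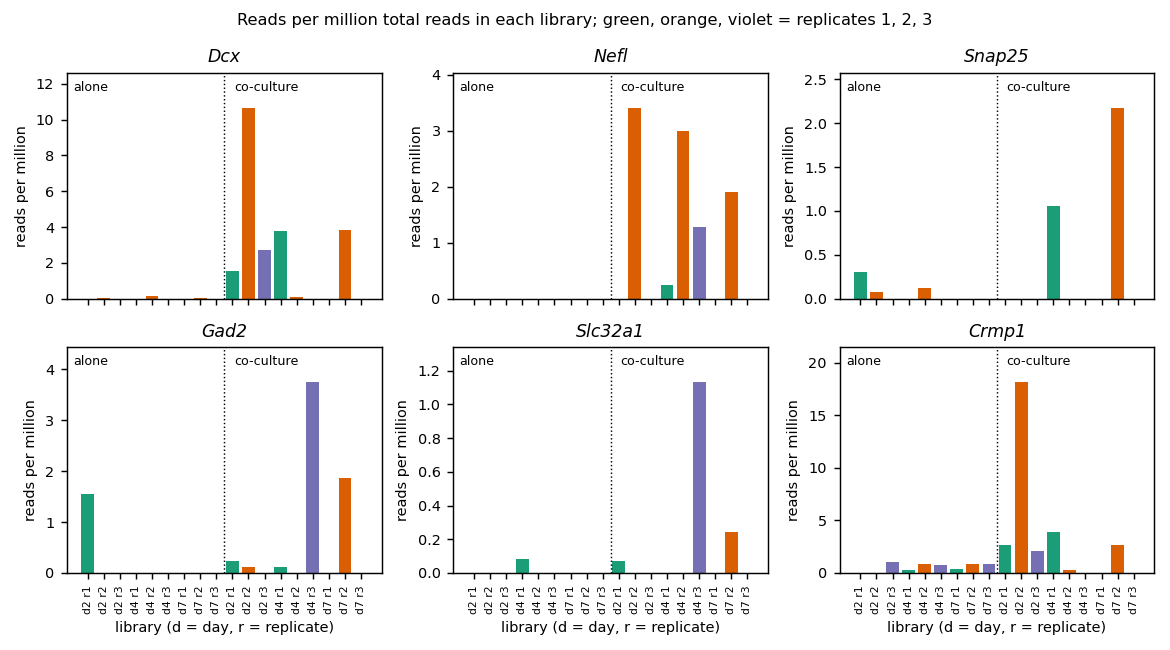
CPM of Dcx, Nefl, Snap25, Gad2, Slc32a1 and Crmp1 in each of 18 libraries (bars, coloured by replicate number, astrocytes alone left of the dotted line and co-culture right of it), each panel on its own axis from 0. Most of the bars on the left are at or near 0 except for Crmp1 and for Gad2 in replicate 1 at day 2, and on the right the tall bars sit in different libraries for different genes.

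Co-culture reads of Dcx, Nefl, Snap25, Gad2, Slc32a1 and Crmp1 were concentrated in particular libraries. The summed level of all 34 genes was spread over the arm, at 285 to 656 CPM. Replicate 2 of the day 2 co-culture gave the highest CPM of 18 libraries for 10 of the 33 members with at least 10 reads, beside 11.7% of all such genes (2284 of 19479). Among them were Dcx (10.7), Nefl (3.41), Crmp1 (18.2), Slc17a7 (4.28), Gap43 (17.7) and Stmn3 (7.69). Replicate 2 of the day 7 co-culture gave the highest for 6 members, Nefm, Reln, Elavl3, Snap25, Syt1 and Gad1. That is 18.2% of the members with at least 10 reads, beside 4.69% of all such genes. This library was also the deepest, at 32623556 reads, and had a read of 33 of the 34 genes. Replicate 3 of the day 4 co-culture held the GABAergic genes Gad2 (3.76 CPM) and Slc32a1 (1.13 CPM) but no read of Dcx, Crmp1 or Slc17a7. At day 7, replicates 1 and 3 with neurons had 0 reads of Dcx, Nefl, Snap25, Gad2, Slc32a1 and Crmp1. In them 15 and 20 of the 34 genes had a read, at depths of 8966485 and 20921099 reads. Among libraries alone, 17 to 28 of the 34 had a read, the 17 in the library of 3242459 reads. Depth differs, so these counts do not compare neuronal content between libraries.

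Microglial markers were highest in replicate 2 in every group. Their summed level in replicate 2 was 122, 196 and 240 CPM alone at days 2, 4 and 7, and 371, 159 and 504 in co-culture, and 9 of the 12 were highest in replicate 2 of the day 7 co-culture. None of the 12 was at 0 over the libraries alone. Their part in the neuronal reads was not tested. In the replicate 2 libraries alone, Nefl was at 0, while all 6 of the Dcx reads alone and 5 of the 6 Snap25 reads alone lay there. All Gad2 and Slc32a1 reads alone, and most of those of Ina and Elavl4, lay in replicate 1 libraries instead. In the day 4 co-culture Dcx was highest in replicate 1, Nefl in replicate 2 and Gad2 in replicate 3.

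The neurofilament partners of Nefl did not share its pattern. Nefm, the medium chain, had 46 reads alone in 6 libraries (1, 10 and 4 at day 2, 22, 8 and 1 at day 4, and none at day 7) and 66 in co-culture, of which 51 were in replicate 2 at day 7 and the rest in replicates 1 and 2 at day 4. Nefh, the heavy chain, was read in 9 of 9 libraries alone, at 1 to 24 reads, and in 5 of 9 in co-culture, at up to 19. Ina, the internexin that joins neurofilaments in young neurons, had 42 reads alone, 36 of them in replicate 1 at day 4, and 23 in co-culture. The ratio of co-culture to alone was 1.38 (0.934 to 2.06) for Nefm, 0.520 (0.345 to 0.774) for Nefh and 0.527 (0.303 to 0.897) for Ina, so that Nefl was the one neurofilament gene of the 4 with no read alone. Rbfox3, which codes for the nuclear antigen NeuN of mature neurons, had 7 reads alone and 14 in co-culture, and Elavl4 had 29 and 15, with 23 of the 29 in replicate 1 at day 4.

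Most reads of the set came from genes that astrocytes alone also held. Alone, the summed level of the 34 genes was 20.4 to 797 CPM with a median of 406, and in co-culture 285 to 656 with a median of 466. Both low ends lay in the doubtful libraries, and over the 16 others they were 316 CPM alone and 400 in co-culture. The highest was Stmn2, a stathmin that frees tubulin from microtubules in growth cones, at 7.09, 147 and 141 CPM alone at day 2, 403, 148 and 54.7 at day 4, and 92.3, 163 and 113 at day 7. In co-culture Stmn2 was at 315, 209 and 124 CPM at day 2, 287, 136 and 41.4 at day 4, and 5.24, 127 and 105 at day 7. The arms overlapped at days 4 and 7, and at day 2 the one co-culture library below a library alone was replicate 3.
Map2, which bundles microtubules in dendrites, was at 2.16, 54.9 and 238 CPM alone at day 2, 181, 84.0 and 223 at day 4, and 90.8, 165 and 117 at day 7. In co-culture it was at 117, 64.9 and 183 CPM, then 152, 92.7 and 286, and then 153, 71.8 and 156. Map2 overlapped between the arms at every day, and replicate 3 was the highest library in 5 of the 6 groups. Tubb3, the beta tubulin used to mark neurons, had CPM of 0.925, 16.3 and 8.45 alone at day 2, 17.6, 10.3 and 5.94 at day 4, and 9.89, 12.7 and 5.03 at day 7. In co-culture Tubb3 was at 24.2, 17.2 and 6.29, at 22.6, 11.7 and 4.04, and at 25.9, 16.6 and 6.12 CPM. Tubb3 was higher in co-culture in 7 of 9 pairs, and replicate 3 was the lowest of its group in both arms at days 4 and 7. The 7 include replicate 1 at days 2 and 7, where 1 library of each pair stood apart. CPM does not correct for the single gene that dominated the day 2 library alone.

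Dpysl3, a collapsin response mediator of growing axons, was higher in co-culture in 8 of 9 pairs, more than any other member. The 8 include replicate 1 at days 2 and 7, where 1 library of each pair stood apart. Dpysl3 values are again given in CPM. Alone it was at 1.85, 44.3 and 42.9 CPM at day 2, 51.3, 31.0 and 28.4 at day 4, and 24.1, 28.0 and 26.7 at day 7. In co-culture it was at 56.1, 65.8 and 52.4, at 51.6, 25.5 and 43.5, and at 31.6, 34.9 and 28.3 CPM. In CPM all 3 co-culture libraries lay above all 3 alone at days 2 and 7, and day 4 overlapped. The margin at day 7 was 28.3 in co-culture replicate 3 against 28.0 in replicate 2 alone. The scaling factors of the edgeR fit (TMM) were 1.22 and 1.17 for these libraries, so with them the arms overlapped at day 7. Mapt, the axonal tau protein, had a median of 6.95 CPM alone and 8.34 in co-culture, and Stmn3 of 1.12 and 1.86. Gap43, a growth cone phosphoprotein, was at 1.22, 0.878 and 3.27 CPM alone at day 7 and at 9.70, 8.64 and 2.77 in co-culture, where replicate 3 overlapped the range alone.

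Among synaptic genes Vamp2, the fusion protein on the vesicle, was at a median of 53.4 CPM alone and 50.6 in co-culture. Its values were 39.6 to 64.0 CPM alone in 8 libraries and 1.23 in the one dominated by a single gene. Syn2, a synapsin that tethers vesicles, followed at medians of 20.8 and 17.9 CPM, and its arms overlapped at every day. Syn1, its relative, was lower in 6 of 9 co-culture libraries than in the paired library alone, among them the doubtful replicate 1 at day 7. It stood at 0.617, 8.69 and 4.64 CPM alone at day 2, 6.58, 3.52 and 4.83 at day 4, and 5.59, 6.40 and 6.47 at day 7. In co-culture Syn1 was at 4.86, 4.78 and 5.49 CPM, then 2.55, 3.69 and 2.27, and then 0.112, 4.29 and 1.96. All 3 co-culture values lay below all 3 alone at day 7, and this held for replicates 2 and 3 without the doubtful replicate 1. Syp, a protein of the vesicle membrane, had medians of 5.55 and 7.52 CPM, and Stx1a, the target membrane partner of Vamp2, of 2.23 and 2.25. Syt1, the calcium sensor of release, had medians of 0.633 and 1.12 CPM with 265 of its 470 co-culture reads in replicate 2 at day 7.

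**Figure D3:**
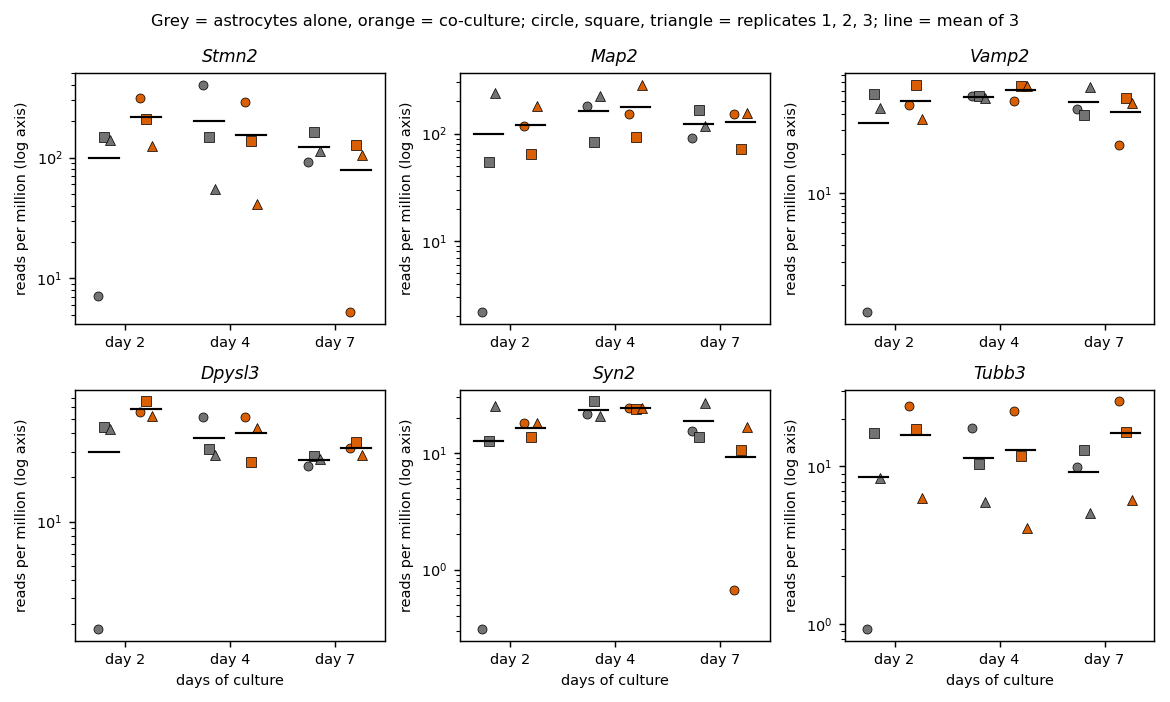
CPM (log axis) of Stmn2, Map2, Vamp2, Dpysl3, Syn2 and Tubb3 by day, with astrocytes alone in grey and co-culture in orange, the replicate given by the marker and the mean of 3 libraries by a line. The arms overlap in most panels, and the isolated low points belong to replicate 1 alone at day 2 and, for Stmn2 and Syn2, to replicate 1 of the day 7 co-culture.

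Levels were compared between genes per kilobase of exon. In astrocytes alone the median was 25.2 CPM per kilobase for Stmn2, 14.0 for Vamp2, 7.13 for Map2, 5.30 for Tubb3, 4.29 for Dpysl3, 2.96 for Syn2, 2.14 for Gap43 and 1.69 for Syn1. The neighbours in that order overlapped in their ranges over the 9 libraries. Below them the median per kilobase was 0.331 for Dlx2 and 0.196 for Dlx1, homeobox factors of inhibitory neuron precursors, 0.146 for Reln, a secreted guide of cortical layering, 0.103 for Gad1 and 0.0399 for Slc17a7. Dcx, Nefl, Ina, Rbfox3, Elavl4, Snap25, Gad2, Slc32a1 and Slc17a6 had a median of 0 alone.

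Of the 34 members, 27 passed the expression filter, and Nefm, Ina, Rbfox3, Elavl4, Snap25, Slc17a6 and Slc32a1 did not. With edgeR's quasi-likelihood test and Benjamini-Hochberg adjustment, 0 of 27 were called in co-culture against alone at day 2, 4 or 7 or on average over the days, beside 0 of 16539 genes (0%) in each. At an unadjusted p under 0.05 on average over the days there were 5 members, beside 4.17% of all genes (689 of 16539). DESeq2 and limma-voom (with a weight for each library) also called 0 members in each of these comparisons. Over the whole table DESeq2 called 22 genes at day 2 (0.135%), 5 at day 7 (0.0308%) and 0 at day 4 and on average (0%), and limma-voom 0 (0%). Nothing in the labels says that replicates came from separate animals, so these p-values measure the spread between the cultures. None of these fits used the replicate number, although libraries of the same number and day departed together from their groups.

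The 5 members were Dcx, with a log2 fold change of 5.87 (SE 1.45), L1cam with 4.28 (SE 1.23), Slc17a7 with 2.39 (SE 1.06), Syn1 with −0.98 (SE 0.46), and Nefl, for which only the bound of at least 63.2-fold is given. Dcx was at 3.27 without replicate 2 of day 7 with neurons, Slc17a7 at 1.04 without the replicate 2 libraries, and L1cam at 0.95 with limma-voom. The SE given is the absolute log2 fold change divided by the square root of the test's F, and not a separately fitted error. Adjusted p of the 5 from edgeR's quasi-likelihood test was 0.982 each. Dcx, Nefl, L1cam and Slc17a7 passed the expression filter only with the help of co-culture libraries, the arm in which they were higher. The fitted values of L1cam and of Gad2 (2.71, SE 1.65) include days on which every library alone had 0 reads and so depend on the fit's prior count. Crmp1 came next at 1.78 (SE 1.05), and was at −1.15 without the replicate 2 libraries and 4.55 without those of replicate 3. The cytoskeletal genes read in both arms lay nearer 0, with Tubb3 at 0.57 (SE 0.43), Dpysl3 at 0.38 (SE 0.20), Stmn3 at 0.32 (SE 0.73), Map2 at 0.19 (SE 0.36), Mapt at 0.08 (SE 0.44), Stmn2 at −0.16 (SE 0.43) and Nefh at −1.44 (SE 1.08). Gap43 stood at 0.96 (SE 0.65), or 0.084 without the replicate 2 libraries, and Reln at −0.51 (SE 0.51). Of the synaptic genes Syt1 was at 0.71 (SE 1.02), Stx1a at 0.39 (SE 0.60), Vamp2 at 0.09 (SE 0.17), Syp at −0.04 (SE 0.51) and Syn2 at −0.32 (SE 0.35). The RNA binding genes were at −0.04 (SE 0.46) for Celf4, −0.22 (SE 0.81) for Elavl2 and −0.60 (SE 1.15) for Elavl3. Gad1 was at 0.73 (SE 0.74), Dlx2 at 0.28 (SE 0.74) and Dlx1 at −0.42 (SE 0.94). Without replicate 2 of the day 7 co-culture Syt1 was at −2.23, Gad1 at −0.57, Dlx2 at −0.84 and Dlx1 at −2.80. Adjusted p ran from 0.982 to 1.00 over the 27 in the same test. Of the 27 directions, 13 held under every scaling, tool, filter and choice of libraries tried. Those of Map2, Stmn2, Syp, Vamp2, Mapt, Elavl2, Elavl3, Dlx2, Celf4, Stmn3, Stx1a, Crmp1, Gad1 and Syt1 turned under at least 1 of them, Mapt and Vamp2 under upper-quartile scaling.

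**Figure D4:**
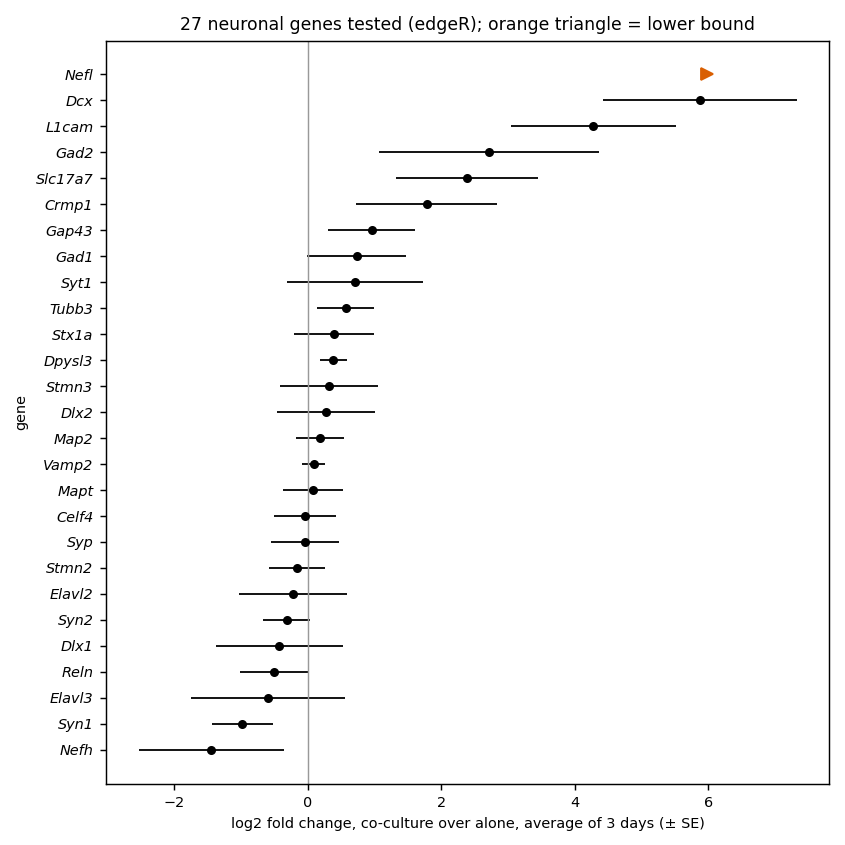
Log2 fold change of co-culture over alone, averaged over 3 days, for the 27 genes tested with edgeR, in descending order (points, with bars of 1 SE as derived in the text). The orange triangle marks the lower bound of Nefl, whose libraries alone had 0 reads, and most points from Syt1 down to Dlx1 lie within 1 SE of 0.

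By direction alone, 17 of the 27 were higher in co-culture and 10 lower, with a median log2 fold change of 0.28, beside 8701 of 16539 genes higher and a median of 0.02 over all genes tested. Nefl had 0 reads alone and Dcx 6, so both passed the expression filter through co-culture libraries and could only count as higher. L1cam, Slc17a7 and Gad2 also had too few reads in the libraries alone to pass without co-culture libraries. Their place among the genes counted as higher is thus not independent of the filter. Of members that did not pass, pooled reads were lower in co-culture for Ina and Elavl4. They were higher for Nefm, Rbfox3, Snap25 and Slc32a1. At single days 15, 19 and 17 of the 27 were higher at days 2, 4 and 7, with medians of 0.05, 0.26 and 0.43, where the medians over all genes were 0.04, −0.01 and 0.004. At an unadjusted p under 0.05 there were 3 members at day 2 (Dcx, L1cam and Slc17a7; 2.35% of all genes), 2 at day 4 (Nefl and Gad2; 0.369%) and 3 at day 7 (Dcx, Nefl and Gap43; 9.37%). Dcx was at a log2 fold change of 7.54 (SE 2.91) at day 2 and 5.73 (SE 2.39) at day 7, with edgeR adjusted p of 1.00 and 0.478, and Gap43 at 2.43 (SE 1.16) at day 7 with 0.533. Gap43 at day 7 was at 1.35 without the replicate 1 libraries and at 0.40 over 16 libraries with a replicate block. Every Dcx read of the day 7 co-culture lay in replicate 2, and with that library left out Dcx at day 7 was at −2.02. The comparisons at single days and their average share libraries, so these counts are not independent of each other.

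Change over time was compared from day 2 to day 7 within each arm. The edgeR test called 0 of 27 members and 0 of 16539 genes (0%) alone, in co-culture and for the difference between them. DESeq2 called 0 members too, beside 3 genes alone (0.0185%), 248 in co-culture (1.59%) and 3 for the difference (0.0185%), and limma-voom called 0. At an unadjusted p under 0.05 there were 2 members alone (1.11% of all genes), 1 in co-culture (13.2%) and 1 for the difference (5.47%). Celf4, an RNA binding regulator of neuronal transcripts, was the one in co-culture, at a log2 fold change of 2.18 (SE 0.80, edgeR adjusted p = 0.297), from 2.74, 2.17 and 7.93 CPM at day 2 to 23.5, 10.7 and 4.68 at day 7, with overlap through replicate 3. The highest value lies in the doubtful replicate 1, and the fold change of Celf4 was 0.85 over 16 libraries and 0.61 without the replicate 1 libraries. The ones alone were L1cam, from 0 reads at day 2 to 9, 7 and 26 at day 7, and Gad2, from 5 reads in 1 library to 0. Gad2 was also the one for the difference, with those 5 reads in the library dominated by a single gene.

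A further 76 neuronal genes were looked at for how far the 34 stand for neuronal transcripts in general. Of the 74 with at least 10 reads, 61 were read in astrocytes alone (82.4%, beside 83.8% of all such genes) and 8 in few libraries. Another 5 were read almost only in co-culture (6.76%, beside 2.2% of all such genes), and Sst and Vip had under 10 reads. The 3 with the most reads in each of the lists of structure, synapse and identity were Kif1a, a motor of axonal transport, at a median of 651 CPM alone and 699 in co-culture, Rtn1 (271 and 267), Tubb2b (210 and 253), Syt11 (278 and 247), Dlg4 (84.3 and 85.9), Gria2 (38.1 and 24.9), Celf5 (30.2 and 25.8), Npy (3.55 and 2.23) and Prox1 (2.89 and 3.28). Among those almost only in co-culture, and named after their values were seen, were Stmn4 with 5 reads alone and 146 in co-culture, Cplx1 with 2 and 63, Cck with 3 and 34, and Neurod2 with 1 and 15. Stmn4 had 107 of its 146 reads and Cck 30 of its 34 in replicate 2 at day 2, the library in which Dcx, Nefl and Crmp1 were highest. Among the 62 tested, 24 were higher in co-culture and 38 lower on average over the days, with a median log2 fold change of −0.08 and 0 called by edgeR. Over all genes tested 8701 of 16539 were higher, with a median of 0.02 and 0 called.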

How the data were processed

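The authors deposited read counts per gene for 18 libraries. They came from featureCounts of Subread and build mm9, per the submitters' processing notes; the sources used here give neither versions nor the strand setting. Entrez IDs were matched to symbols through RefSeq (24191 of 26301), and 17 columns of correlations were not used. The members and lists were chosen with earlier results of these data known. In R 4.3.3, edgeR 4.0.16 fitted 1 quasi-likelihood model with 6 group means to all 18 libraries (TMM, filterByExpr, Benjamini-Hochberg, adjusted p under 0.05). The text names all 34 members, the 3 genes with the most reads of each further neuronal list and the 10 genes with the most co-culture reads among those almost only in co-culture. Alternatives were DESeq2 1.42.0, limma-voom 3.58.1, other scalings and filters, a replicate block, 16 libraries, and leaving out each replicate. Each replicate number has 1 date in the labels. Libraries of the same number and day departed together from their groups (correlations of 0.108 to 0.469, and −0.346 to −0.0102 between other numbers). Departures were taken from group means, so the negative values partly follow from the positive ones. Replicate numbers thus pair the libraries, but the main model did not use the pairing. Among the fits only those with the replicate block did. GENCODE M21 exons on GRCm38 gave lengths and overlaps only. The procedure was tested on simulated data. Some genes these rules name are not reported here.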

Additional observations from a re-analysis of the deposited data

How the results depend on the processing

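No member was called (0) under any alternative. With the replicate block edgeR called 0 members in each comparison. Over the whole table it then called 1 of 16539 genes at day 7 and 1 over time in co-culture (0.00605% each), and 0 elsewhere (0%). With the block over 16 libraries 0 members were called, beside 16 of 17092 genes at day 2 (0.0936%) and 18 at day 7 (0.105%). It called 0 genes at day 4 and on average (0%), 17 over time in each arm (0.0995%) and 23 for the difference (0.135%). Members read almost only in co-culture numbered 3, and were 2 (Dcx and Nefl) with a share of up to 5% alone, 4 with TMM CPM, 5 with reads in place of CPM, 7 with a share of up to 20% alone, 5 over 16 libraries, and 3 to 5 without 1 replicate number, while members with under 10 reads were 1 to 2. The sign of an average log2 fold change turned in these cases, and the cause was not tested. With limma-voom Map2 was at −0.22, Stmn2 at 0.23, Elavl3 at 0.015, Syp at 0.13 and Dlx2 at −0.41. With upper-quartile scaling Mapt was at −0.020 and Vamp2 at −0.030. Over 16 libraries Map2 was at −0.11, Stmn2 at 0.032, Elavl3 at 0.87 and Syp at 0.29. With the replicate block added Map2 was at −0.15, Elavl2 at 0.057, Elavl3 at 1.02 and Syp at 0.26, and with no filter as well at −0.14, 0.059, 1.03 and 0.27.
Leaving out 1 replicate or library at a time, the fold change ran from −2.02 to 7.77 for Dcx at day 7, and on average over the days from −0.12 to 0.60 for Map2, −0.37 to 0.78 for Mapt, −0.43 to 0.12 for Stmn2, −0.18 to 0.54 for Stmn3, −1.15 to 4.55 for Crmp1, −1.20 to 1.61 for Elavl2, −1.42 to 0.81 for Elavl3, −0.47 to 0.077 for Celf4, −2.23 to 1.64 for Syt1, −0.44 to 0.17 for Syp, −0.024 to 0.91 for Stx1a, −0.055 to 0.18 for Vamp2, −0.57 to 1.03 for Gad1 and −0.84 to 0.50 for Dlx2. Without a turn of sign it ran from 3.27 to 6.95 for Dcx, 3.44 to 4.84 for L1cam, 1.04 to 3.50 for Slc17a7, 0.084 to 1.60 for Gap43 and −2.80 to −0.17 for Dlx1 on average, and from 1.35 to 3.61 for Gap43 at day 7. Of 39 fold changes followed over the alternatives, 24 kept their direction throughout. Depth limits the rarest genes, since 1 read was 0.0307 to 0.308 CPM.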

Other observations

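Genes outside the lists were searched for the pattern of Dcx and Nefl, meaning at most 10% of summed CPM alone and a read in at least 5 of 9 co-culture libraries. Over 18 libraries 56 genes had it, and 9 of the 10 with the most co-culture reads (Akr1c18, Nmb, Gm9917, Cd180, Shisal2b, Snora17, Piwil2, Cyp27b1 and Lrg1) were highest in replicate 1 of the day 7 co-culture, with Dcx as the 10th. Over 16 libraries 14 genes had it. Dcx was first with 496 co-culture reads, and among the others were Kcnma1 (399 reads, and 48 alone), Nefl (197 and 0), Cd4 (186 and 25), Ptpn5 (179 and 7), Kcna1 (162 and 20), Kcnb2 (134 and 11), Gad2 (126 and 0) and Atp1b4 (86 and 9). Kcnma1, Kcna1 and Kcnb2 code for potassium channel subunits, and Ptpn5 for a phosphatase of striatal and other forebrain neurons. Of these genes, Cd4, Ptpn5, Kcna1, Kcnb2, Gad2 and Atp1b4 were highest in replicate 3 of the day 4 co-culture, which had 0 reads of Dcx, and Dcx, Kcnma1 and Nefl in replicate 2 of the day 2 co-culture.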
